A study of Mus musculus with 12 samples.

Results

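The genes described are 8 genes of the primary granule and of early granulocyte development, Mpo, Elane, Prtn3, Ctsg, Ms4a3, Cebpe, Gfi1 and Csf3r. They were chosen by gene symbol, and all 8 were found among the 30743 rows of the deposited table of liver RNA. The 12 samples were whole livers of male C57BL/6J fetuses, 6 from dams on a control diet with 13.5 kcal% fat and 6 from dams on a high-fat diet (HFD) with 60 kcal% fat. The dams had been fed for 12 to 14 weeks, and livers were taken at 15 ± 0.5 days post coitum (dpc). Each liver was sequenced as polyA-selected RNA. What was used of the table is 1 value per gene, the authors' average log2 CPM (CPM, reads of a gene scaled to the size of the library) over all 12 livers of both diets. The spread between livers and the difference between the diets were therefore not analysed here, and no value below has a standard deviation.

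Neutrophil granulocytes arise from myeloid progenitors, which the fetal liver holds at this age. Granules are made in waves. Primary, or azurophil, granules are filled first, at the promyelocyte stage, with myeloperoxidase (Mpo) and the serine proteases neutrophil elastase (Elane), proteinase 3 (Prtn3) and cathepsin G (Ctsg). Secondary and tertiary granules follow later, with proteins such as lactoferrin (Ltf) and gelatinase B (Mmp9). Cebpe and Gfi1 encode transcription factors that later granulocyte maturation requires. Ms4a3 encodes a membrane protein of granulocyte and monocyte progenitors, and Csf3r encodes the receptor of granulocyte colony-stimulating factor.

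The promoters of the 4 granule enzymes are shown first because these genes carried nearly all of the reads of the group and because their windows share a short motif. Each window holds 250 bases before and 50 bases after the transcription start, from RefSeq on GRCm38.p6, the build of mm10, read 5′ to 3′ on the gene's strand. Capitals mark the ETS-type motif AGGAAGT, to which the myeloid factor PU.1 and its relatives can bind, and the MYB-type motif CAACNG, each on either strand.
Mpo (chr11:87793534-87793833, plus strand): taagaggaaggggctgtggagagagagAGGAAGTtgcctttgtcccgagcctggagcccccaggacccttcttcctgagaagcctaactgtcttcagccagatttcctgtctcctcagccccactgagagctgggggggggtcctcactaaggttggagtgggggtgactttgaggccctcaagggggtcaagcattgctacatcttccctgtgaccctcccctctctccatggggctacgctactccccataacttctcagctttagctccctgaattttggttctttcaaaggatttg
Elane (chr10:79886062-79886361, plus strand): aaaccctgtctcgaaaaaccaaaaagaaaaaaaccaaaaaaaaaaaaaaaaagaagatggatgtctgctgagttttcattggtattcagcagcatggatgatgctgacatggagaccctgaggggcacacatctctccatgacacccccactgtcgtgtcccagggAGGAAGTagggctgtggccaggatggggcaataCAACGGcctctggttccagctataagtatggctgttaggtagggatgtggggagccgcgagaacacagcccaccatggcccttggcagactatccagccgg
Prtn3 (chr10:79879417-79879716, plus strand): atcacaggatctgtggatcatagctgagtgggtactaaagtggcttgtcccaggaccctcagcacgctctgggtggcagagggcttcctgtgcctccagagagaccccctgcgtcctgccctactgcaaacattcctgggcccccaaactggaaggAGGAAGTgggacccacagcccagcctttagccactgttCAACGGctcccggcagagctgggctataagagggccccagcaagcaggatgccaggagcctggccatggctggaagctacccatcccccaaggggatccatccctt
Ctsg (chr14:56102525-56102824, minus strand): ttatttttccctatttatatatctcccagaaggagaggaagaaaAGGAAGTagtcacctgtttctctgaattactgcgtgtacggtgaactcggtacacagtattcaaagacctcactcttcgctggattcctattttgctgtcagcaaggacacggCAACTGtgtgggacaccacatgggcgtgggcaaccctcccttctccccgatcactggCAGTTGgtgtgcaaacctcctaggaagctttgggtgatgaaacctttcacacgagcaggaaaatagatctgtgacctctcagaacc

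AGGAAGT was found in all 4 of these windows, each time on the strand of the gene. Counted from the transcription start, it began at base -223 in Mpo, -206 in Ctsg, -94 in Prtn3 and -84 in Elane. Of all 32851 promoter windows of the table, 9.35% held it on either strand. Among the other members with a window (Ms4a3, Gfi1 with 2 windows, and Csf3r) none did, so 4 of 7 members had it. CAACNG was found in Elane, Prtn3 and Ctsg and in 35.0% of all windows. In Elane and Prtn3 it read CAACGG and began at bases -51 and -56, downstream of AGGAAGT in both. In Ctsg it was found on both strands, as CAACTG and CAGTTG. The C/EBP-type motif TTGCNNAA was found only in Ms4a3 and in 1 window of Gfi1, against 10.8% of all windows. TGTGGT, a RUNX-type motif, was found in Ctsg alone (16.8% of all windows), and so was TATAAA (13.6%), there on the opposite strand at base -237. The search was for exact letters. The windows of Elane and Prtn3 hold TATAAG on the strand of the gene, which was not searched for in the other windows. The 5 motifs were written down after these sequences had been read, and the 2 marked in capitals were picked after their matches were known, so the counts are a description and support nothing. Matches are of letters, and binding was not measured. No window of Cebpe was matched.

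Mpo was by far the most abundant of the 8 transcripts. Its average was 9.57 log2 CPM, or 759 CPM, which placed it at rank 128 of the 30743 rows. The other 3 granule enzymes followed, with Elane at 6.80 log2 CPM (112 CPM), Ctsg at 6.34 (81.3 CPM) and Prtn3 at 5.26 (38.3 CPM). Together the 4 enzymes made up 98.1% of the summed CPM of the 8 genes, and Mpo alone made up 75.2%. Cebpe averaged 4.15 log2 CPM (17.8 CPM). The last 3 members lay under 1 CPM: Ms4a3 at -0.18 log2 CPM (0.885 CPM), Gfi1 at -1.17 (0.445 CPM) and Csf3r at -2.26 (0.209 CPM). Thus 5 of 8 members were above 1 CPM, against 33.1% of all rows. Among the 18710 rows matched to 1 coding gene of the annotation, 45.1% were above 1 CPM. In whole liver, fewer granulocytic cells and less RNA in each of them cannot be told apart in such levels.

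**Figure D1:**
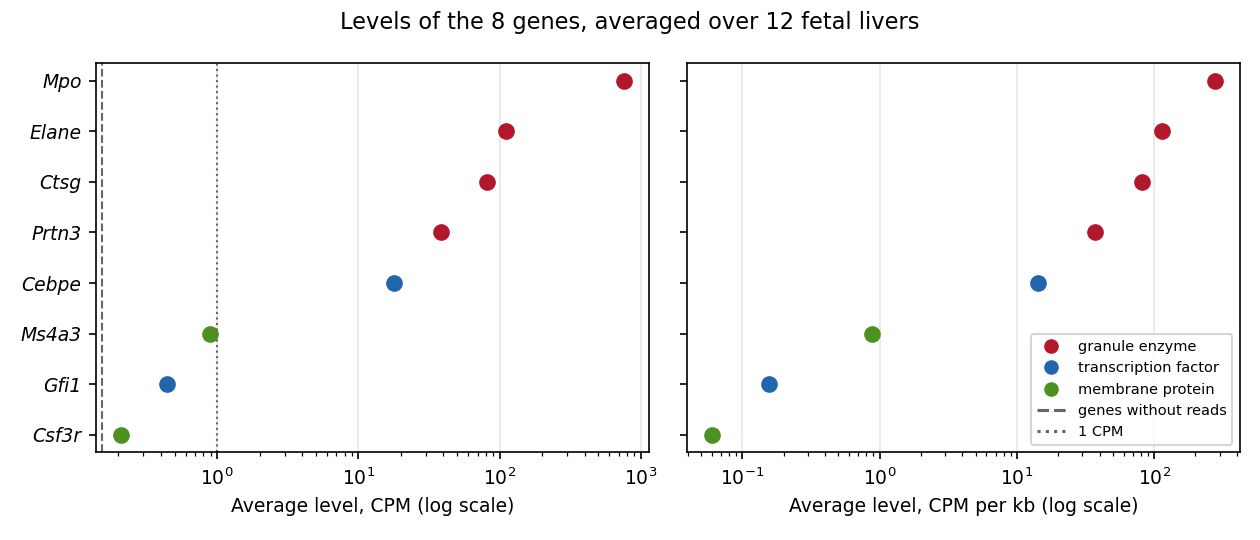
Average level of each of the 8 genes over the 12 livers, in CPM (left) and in CPM per kb of the longest coding transcript (right), both on log axes, with 1 point for each gene and no error bars because only the average was used. The 4 granule enzymes lie from 38.3 to 759 CPM, Cebpe lies at 17.8 CPM, and Ms4a3, Gfi1 and Csf3r lie under 1 CPM.

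Levels of different genes were compared per kilobase of the longest coding transcript, since longer transcripts give more reads. The order of the 8 genes was the same per length as in CPM. Mpo, with a transcript of 2750 bases, had 276 CPM per kb, and its lead narrowed to 2.43-fold over Elane (114 CPM per kb), against 6.79-fold in CPM. With the median length of the coding transcripts in place of the longest, that lead was 4.16-fold. Ctsg had 81.1 CPM per kb, and Elane exceeded it 1.40-fold, the smallest step of the order. Prtn3 had 37.4 CPM per kb, and Ctsg exceeded it 2.17-fold. Prtn3 exceeded Cebpe (14.3 CPM per kb) 2.60-fold. Among the 14511 coding genes with reads and a known length, Mpo lay at percentile 98.8, Elane at 96.6, Ctsg at 95.1, Prtn3 at 89.8 and Cebpe at 80.6. Ms4a3 lay at percentile 52.7, Gfi1 at 28.2 and Csf3r at 10.5. With coding genes without reads included, these 3 lay at percentiles 63.3, 40.6 and 18.4. The CPM divided by length include 0.152 CPM that genes without reads also show. A short gene without reads can thus rank above a longer gene with reads. Slpi, without reads, had 0.174 CPM per kb, more than Gfi1 and Csf3r. The percentiles of these low members are therefore no ranks of expression. Whether neighbours in this order differ beyond the spread between livers could not be tested with 1 average for each gene. Below Cebpe the order dropped steeply, to 0.876 CPM per kb in Ms4a3, 0.155 in Gfi1 and 0.0601 in Csf3r. These 3 values also include the amount that genes without reads show.

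The values of the 3 low members rested on few reads. The table's 11091 rows without reads share the lowest value, 0.152 CPM, and the 1267 rows next above it lay 1 read higher. With that step, which was 0.00634 CPM, the reads of a gene summed over the 12 livers could be estimated. For all 3149 rows with 1 to 5 reads, the estimate lay within 0.1 of a whole number. The 1267 rows at 1 read set the step and lie near 1 by construction, so only the rows with more reads test it. Csf3r had an estimated 9 reads in all (95% exact Poisson interval 4.12 to 17.1), Gfi1 had 46 (33.7 to 61.4) and Ms4a3 had 116 (95.9 to 139). These intervals cover counting error only. Above 5 reads the estimates were not compared with whole numbers, and they are of normalized reads. Most of the 0.209 CPM of Csf3r was the amount that a gene without reads also shows, and above it Csf3r had 0.0570 CPM. By the same estimate Cebpe had 2783 reads, Prtn3 6014, Ctsg 12790, Elane 17588 and Mpo 119562.

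Among coding genes with several annotated transcripts, low values were frequent where few exonic bases lay in only 1 transcript. The 2 lowest members were such genes. In GENCODE M21, the annotation of GRCm38, the exonic bases that lie in only 1 transcript of the gene made up 7.76% in Csf3r (4 transcripts) and 16.9% in Gfi1 (4 transcripts). The share was 25.9% in Mpo (6 transcripts), 47.3% in Ms4a3 (3), 50.1% in Ctsg (2) and 56.0% in Prtn3 (6). Elane and Cebpe each have 1 transcript. Over the coding genes with several transcripts, the median level rose with this share. It was the lowest value of the table, -2.71 log2 CPM, in the 1592 genes with a share up to 10%, and -1.70 in the 2500 genes from 10% to 25%. It reached -0.43 in the 4503 genes from 25% to 50%, 0.81 in the 4395 genes from 50% to 75% and 3.12 in the 2608 genes above 75%. The 3112 genes with 1 transcript did not follow this rise and had a median of -1.98. This share was the third measure of annotation looked at, after the values were known, and it was kept for its trend. By the number of RefSeq NM transcripts, looked at first, the median was -0.26 log2 CPM for genes with 1, -0.72 with 2, -1.07 with 3 or 4, -0.78 with 5 to 8 and -0.89 with 9 or more. By the number of GENCODE transcripts, looked at second, the median was -1.98 for 1, -2.01 for 2, -0.58 for 3 or 4, 0.25 for 5 to 8 and 0.14 for 9 or more, so it was lower with few transcripts than with many. Csf3r, Gfi1 and Ms4a3 thus lay within the middle range of genes of their own share, while Mpo, Ctsg and Prtn3 lay above it. The part of this overlap in the low values, and in the steps between the higher members, was not tested. The gene models and the rule by which reads were counted are not given in the sources used here (biomaRt is named for annotation).

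**Figure D2:**
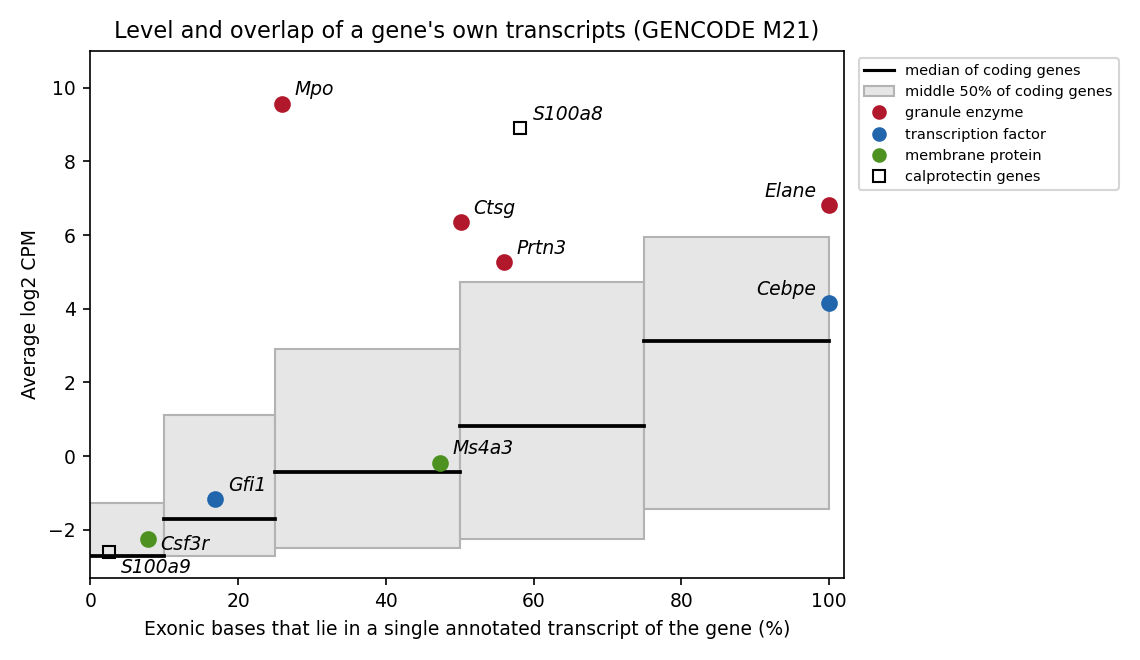
Average log2 CPM against the percentage of a gene's exonic bases that lie in a single annotated transcript. Black lines and grey boxes give the median and the middle 50% of coding genes with several transcripts, in 5 ranges of that percentage, coloured points are the 8 genes, and open squares are S100a8 and S100a9. Elane and Cebpe, at 100%, have 1 transcript and are not of the kind the boxes describe. The medians rise from -2.71 to 3.12, Csf3r and Gfi1 lie at the left, and Mpo lies at 9.57 despite a share of 25.9%.

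Several genes with well-known roles were low as well, and not all of them had a low share. S100a8 and S100a9 encode the subunits of calprotectin, a protein of maturing neutrophils. S100a8 had 478 CPM (an estimated 75299 reads, with a share of 58.2%), whereas S100a9 had 0.165 CPM (2 reads, 2.49%). Kit, the receptor of stem cell factor on blood progenitors, had 1 read in the 12 livers with a share of 37.7%. Gapdh, a glycolytic enzyme gene that every cell uses, had 5.20 CPM with a share of 50.1%, against 2581 CPM for Actb with a share of 24.0%. Apoa2, a hepatocyte gene, had 2251 CPM although its share was 8.38%. These genes were singled out after the table had been seen. A low value of Csf3r, Gfi1 or Ms4a3 is accordingly given as the table lists it, not as low expression in the liver.

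Transcripts of the members shared no long stretches with one another. No stretch of 50 bases of any member's transcripts occurred in another member. None of the stretches of Elane, Ctsg, Ms4a3 and Cebpe occurred in any other gene of the annotation. Of Prtn3, 6.45% of the stretches also occurred in Plppr3, and of Gfi1, 1.05% occurred in A430072P03Rik. For Mpo 9.46% occurred in 30 other genes, and for Csf3r 10.7% occurred in 402 other genes. The coding sequences of the 3 proteases were compared over their whole length. Elane and Prtn3 were 59.6% identical in a global alignment of coding sequences of 795 and 762 bases. Prtn3 and Ctsg were 52.1% identical, and Elane and Ctsg were 51.8% identical. Identity was between 19.9% and 48.1% for the 25 other pairs of members, whose lengths also differ more. In local alignments, which do not count the unmatched ends, the 25 other pairs lay between 46.7% and 50.5%, Elane and Ctsg at 53.0%, Prtn3 and Ctsg at 54.2% and Elane and Prtn3 at 62.3%. The pairs with Ctsg thus lay little above pairs of unrelated genes.

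The members lie on 6 chromosomes of GRCm38. Neighbours below are the nearest coding genes on each side that do not overlap the member. A gene that overlaps a member was not looked at. Prtn3 (chr10:79874476-79883174) and Elane (chr10:79886247-79888215) are adjacent on the plus strand with 3072 bases between them, and both were well expressed. The next gene beyond Elane, Cfd, which encodes complement factor D and is a related serine protease, lies 2637 bases away and was listed without reads, with a single-transcript share of 5.53%. Mpo (chr11:87793581-87804413) is followed after 2014 bases by Lpo, which encodes the related lactoperoxidase. Lpo had 0.482 CPM, an estimated 52 reads, although 80.3% of its exonic bases lie in 1 transcript. Ctsg (chr14:56099881-56102574) stands among protease genes of mast cells and lymphocytes. Its neighbours Mcpt8, a basophil protease gene, and Gzme, a granzyme gene, had 1 read and no reads. Ms4a3 (chr19:11629496-11640851) has Ms4a2, the gene of a mast cell IgE receptor subunit, on 1 side, with 6 reads. Cebpe (chr14:54710360-54712174), Gfi1 (chr5:107716657-107726036) and Csf3r (chr4:126024550-126044440) have neighbours of other families, among them Slc7a8 with 36.6 CPM beside Cebpe and Mrps15 with 43.5 CPM beside Csf3r. Of the 13 neighbours found in the table, Prtn3 and Elane included, 5 were above 1 CPM, against 45.1% of matched coding genes. The others of these 5 were Ptbp1 (8.23 CPM), Slc7a8 and Mrps15.

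Other genes of granule formation were listed at high and at low levels. Of 11 further genes of granule content and processing, 9 had reads and 7 were above 1 CPM. Of the 18710 matched coding genes, 14511 had reads and 45.1% were above 1 CPM. Averages over whole livers do not show which cells hold these transcripts. Ctsc, the protease that activates the granule proteases, had 51.0 CPM per kb, between Prtn3 and Ctsg. Srgn, the proteoglycan that packs granule proteins, had 58.8 CPM per kb, and Serpinb1a, a cytosolic inhibitor of these proteases, had 32.5. Lyz2, the lysozyme of myeloid cells, had 333 CPM per kb, more than Mpo. Bpi, another primary granule gene, and Slpi, a secreted elastase inhibitor, were listed without reads, and Lyz1 and Gusb had 0.494 and 0.312 CPM. Only 0.623% of the exonic bases of Bpi lie in 1 transcript, against 35.0% for Slpi.

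Among 9 transcription factors of granulocytes and monocytes in the table, all had reads and 7 were above 1 CPM, against 45.1% of matched coding genes. Cebpa, which early myeloid commitment requires and which hepatocytes also express, had 68.3 CPM per kb. Irf8, a factor of monocytic fate, had 15.6 CPM per kb, close to the 14.3 of Cebpe. Cebpb had 11.4 and Klf4 had 2.62. Runx1 was lowest, with an estimated 14 reads, and Lmo4 had 50. Gfi1b, the erythroid and megakaryocytic relative of Gfi1, had an estimated 350 reads, against 46 for Gfi1, although its single-transcript share was only 6.12%. Of 10 growth factors and receptors of the myeloid lineage, 3 were above 1 CPM, against the same 45.1%. Csf2ra, a receptor chain for GM-CSF, was highest at 18.0 CPM per kb. Csf3, the ligand of Csf3r, had an estimated 6 reads. Spi1, the gene of PU.1, was not matched by symbol and has no value here.

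Several genes of later granules reached the levels of the granule enzymes. Of 11 genes of late neutrophil maturation in the table, 9 were above 1 CPM, against 45.1% of matched coding genes. Under 1 CPM were Retnlg (0.356 CPM, an estimated 32 reads), which has 1 annotated transcript, and S100a9 (0.165 CPM). The median of the list was 6.79 CPM per kb, against 25.9 for the 8 members and 0.683 for all coding genes with reads. Ngp (235 CPM per kb) and Camp (201), both secondary granule genes, lay between Elane and Mpo. Lcn2 (125) lay just above Elane, and Ltf (78.7) lay just below Ctsg. S100a8 had 983 CPM per kb and exceeded every member. The gelatinase Mmp9 (4.59) and the collagenase Mmp8 (6.27) lay below Cebpe. Levels here are averages over whole livers, so they do not show which cells hold these transcripts.

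Marker genes of other cells were read from the same table, and single genes of several lists were under 1 CPM. Among them were Serpina1a of the hepatocyte list (an estimated 5 reads), Alas2 of the erythroid list (87 reads), and Kit (1 read) and Ly6a (no reads) of the stem and progenitor list. A low value or a low median of a list is therefore, as for the 3 low members, no measure of low expression. By their medians hepatocyte genes were highest, with a median of 4346 CPM per kb for 9 genes and Alb at 31128. The 9 erythroid genes had a median of 193 CPM per kb, between Elane and Mpo. Macrophage and monocyte genes had 57.3 (10 genes), with Cd5l at 189. Cd68 (an estimated 9 reads) and Csf1r (84 reads) of that list were under 1 CPM. Eosinophil granule genes were mixed, as Prg2 had 154 CPM per kb and Epx, the eosinophil relative of Mpo, had 6.83. Of genes of mast cells and basophils, Hdc, which encodes the enzyme of histamine synthesis, had 10.1 CPM per kb and the protease gene Cpa3 had 5.70, both between Cebpe and Ms4a3, while Tpsab1, a tryptase gene, was listed without reads. Cma1 (0.626 CPM), Tpsb2 (0.713 CPM), Mcpt8 (1 read) and Ms4a2 (6 reads) were under 1 CPM as well. The median of the 10 genes of mast cells, eosinophils and basophils was 1.85 CPM per kb. Of these 10 genes, 5 were above 1 CPM, against 45.1% of matched coding genes. B lineage genes had a median of 2.24 CPM per kb and T lineage genes 0.192. The list of stem and progenitor genes had a median of 0.243, and Flt3 was its highest at 2.70. Of all 121 genes of the lists other than the 8 members, 78 were above 1 CPM, against 45.1% of matched coding genes. Values near the lowest of the table include the amount that genes without reads also show.

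**Figure D3:**
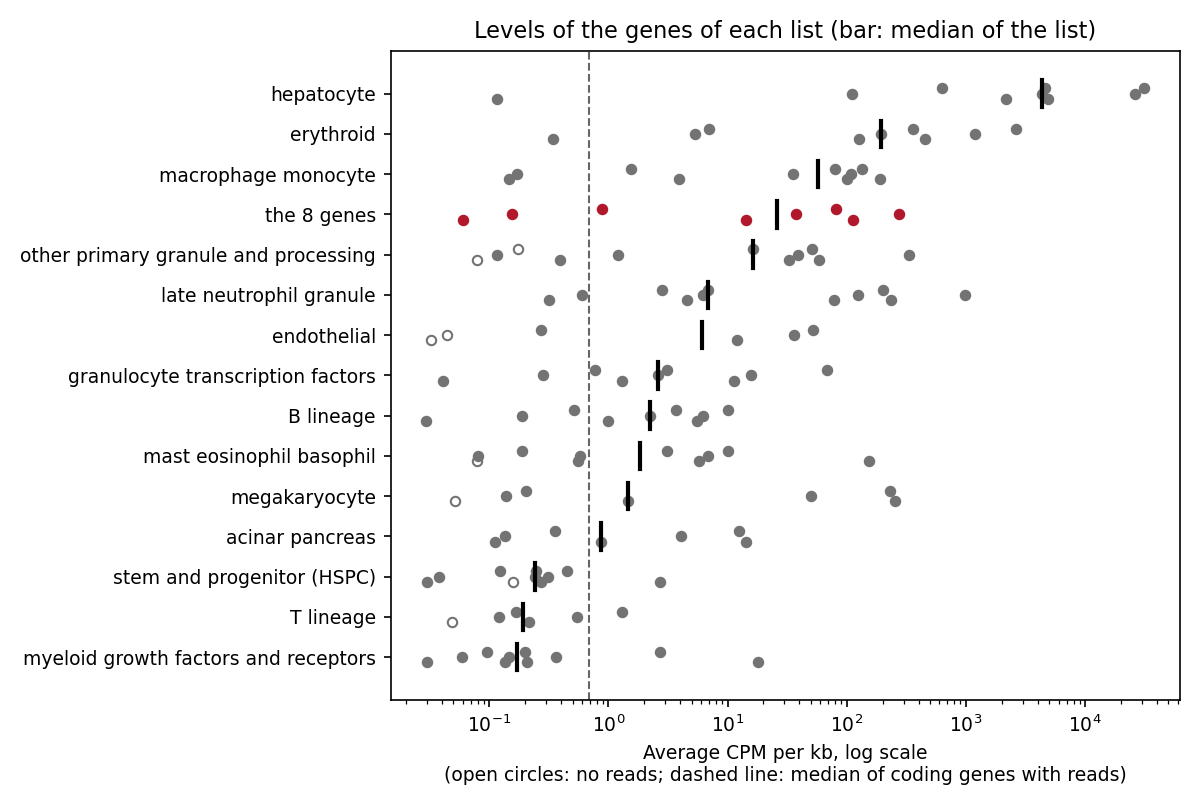
Average CPM per kb over the 12 livers on a log axis for each gene of the 15 lists, with 1 point for each gene, the 8 members in red, open circles for genes without reads and a bar at the median of the list. The 8 genes have a median of 25.9 CPM per kb and spread from 0.0601 to 276, and their median lies below those of hepatocyte, erythroid and macrophage genes and above those of the other lists.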

How the data were processed

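Per the labels and the methods of the study, adapters were removed with cutadapt 1.2.1 and Subread 1.3.6-p1 was the aligner, with mm10 as the genome. Gene names came from biomaRt, and edgeR (version not given in the sources used here) compared the diets. The deposited table has 1 row per gene symbol and gives the authors' average log2 CPM over all libraries, which includes a small prior count. It also holds the authors' own comparison of the diets (fold changes, p-values and adjusted p-values), which was not used. Values of single livers were not analysed here, so the planned test of the diets was not run. The labels do not say whether fetuses shared a dam.

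The value of genes without reads and the step of 1 read gave the estimated reads. The calculation was checked on counts simulated from these same estimates, with an assumed prior count of 2. That check tests the calculation and not the estimates of the real table. The step corresponds to a mean of about 13100000 normalized reads a library. CPM per kb uses the longest coding transcript in GENCODE M21 (GRCm38), in which 18710 symbols matched 1 coding gene. Promoters are from RefSeq. Coding sequences were aligned with Biopython 1.88, under Python 3.11.15.

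Named were all members and their nearest coding neighbours that do not overlap them. Of each list described, the highest, the lowest, genes under 1 CPM and up to 4 by role were named, in part. Members and lists were chosen with earlier results of these data known. Motifs, the annotation measures and the genes compared for them were chosen after the sequences or values were seen.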

Additional observations from a re-analysis of the deposited data

How the results depend on the processing

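The count of 5 members above 1 CPM was also 5 after the lowest value was subtracted and above 2 CPM, and 6 were above 0.5 CPM, the thresholds for the members and for the neighbours having been chosen after seeing the data. Per length, 5 members were above 1 CPM per kb with the longest or the median coding transcript and 6 with the coding length, and the order of the 8 genes was unchanged in all 3. None of these lengths accounts for overlap between a gene's own transcripts. The share of exonic bases in only 1 transcript was 25.9% in Mpo, 50.1% in Ctsg and 100% in Elane. An order that takes this overlap into account was not tested. The lead of Mpo over Elane per length was 4.16-fold with the median transcript and 2.51-fold with the coding length. With a larger gap penalty Elane and Prtn3 were 57.9%, Elane and Ctsg were 46.9% and Prtn3 and Ctsg 44.7% identical. Over all rows of the table in place of rows with reads, the percentile in CPM rose from 19.9 to 48.8 for Csf3r, from 36.1 to 59.2 for Gfi1 and from 46.6 to 65.9 for Ms4a3, because rows without reads rank lowest. Subtracting the lowest value took Csf3r from 0.209 to 0.0570 CPM and Gfi1 from 0.445 to 0.292 CPM. Of the listed genes, 87 were above 0.5 CPM and 70 above 2 CPM. For the members, the mean of the log2 CPM was 3.57 and the median 4.71. The average column of the other dispersion analysis was not run, and neither were the alternatives for the comparison of the diets (other normalization and test, no filter, leaving out replicates). No paired analysis was possible, because 1 average per gene over all livers was used and the labels do not say whether fetuses shared a dam.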
